A study of Homo sapiens with 8 samples.

Results

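The genes described here encode the receptors through which cells detect the classical neurotransmitters: acetylcholine, glutamate, GABA, glycine, serotonin, the catecholamines that act on adrenergic receptors, and dopamine. They were chosen by gene symbol alone (the GABR, GABBR, GRI, GRM, CHRN, CHRM, HTR, ADR, DRD and GLR families), and 102 of the 47591 entries in the count table met the rule. GRINA, which also met it by its symbol, encodes a membrane protein of the TMBIM family and is no receptor subunit. It was kept and is named wherever it bears on a value. The libraries were polyA RNA-seq of SH-SY5Y, a human neuroblastoma cell line of neural crest origin, in 3 forms. G2 (3 libraries) had PRPF40B, a splicing factor, silenced with CRISPR/Cas9 and 1 guide RNA, SCR (3 libraries) had received CRISPR/Cas9 with a scrambled control guide, and WT (2 libraries) was not modified. After puromycin selection, colonies of the edited cells were raised by limiting dilution, and G2 and SCR but not WT cells were kept in puromycin, so that G2 stands for 1 guide and 1 line. The silencing, the guide and the history of the line cannot be told apart in these comparisons, although SCR shares the Cas9 and selection steps with G2.

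Neurotransmitter receptors work in 2 main ways. Ionotropic receptors are channels assembled from several subunits, and the mix of subunits sets which ion passes, how tightly transmitter is held and how quickly the channel closes: nicotinic, 5-HT3 and the AMPA, NMDA and kainate glutamate receptors pass cations, whereas GABA-A and glycine receptors pass chloride. Metabotropic receptors are single-chain proteins of the G protein-coupled family (GABA-B and the metabotropic glutamate receptors act as dimers) and raise cyclic AMP through Gs, lower it through Gi/o, or release calcium through Gq/11. Cells of the sympathetic lineage, from which SH-SY5Y descends, are known for ganglionic nicotinic receptors built on the α3 and β4 subunits and for α2-adrenergic autoreceptors.

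PRPF40B itself (GSHG0009006, chr12:49623561-49644666) had normalized counts of 840.2, 841 and 918 in G2, 1686, 1672 and 1669 in SCR and 1972 and 1668 in WT. All G2 libraries lay below all 5 control libraries. The log2 fold change was -0.95 ± 0.08, adjusted p = 7.4e-07 for G2/SCR and -1.07 ± 0.09, adjusted p = 7.9e-07 for G2/WT, while SCR and WT differed by -0.11 ± 0.09, adjusted p = 0.33, which did not pass. The libraries held 59804395 to 81080747 counts each. Ribosomal RNA genes took 0.384 to 0.587% of the G2 and SCR counts and 4.75 to 4.96% of the WT counts. All 12 noradrenergic neuroblastoma markers reached a mean of at least 10 over all libraries, but TH lay at 5.65, 0 and 0 in G2. Their summed level was 275490 to 279516 in G2, 382866 to 393473 in SCR and 356647 to 368944 in WT. STMN2 was the largest part (means of 165517, 170244 and 116782), level between G2 and SCR and higher in G2 than in WT. GATA3 was higher in every G2 library than in the controls. Each of the other markers had a lower mean in G2 than in both controls, for example CHGA (3101, 26130 and 33445). The markers of mesenchymal-type neuroblastoma or fibroblasts (10 of 11 at a mean of at least 10, FN1 at or near 0) summed to 327971 to 330883 in G2, 118640 to 126220 in SCR and 84500 to 96141 in WT. Most of each sum was VIM (means of 214430, 85197 and 59181). TWIST1 was lower in G2 than in both controls (21105, 27740 and 26687), and PDGFRB was level between G2 and WT (2912, 2355 and 2911). The other markers at that mean were higher in every G2 library than in the controls. The blood cell list (2 of 5 at a mean of at least 10, PTPRC and HBB at or near 0) summed to 687 to 761 in G2, 98.0 to 145 in SCR and 115 to 140 in WT, nearly all of it CD68, a lysosomal protein of macrophages (means of 703, 65.3 and 86.8). The Schwann cell and glia list (3 of 7, SOX10 at 0) summed to 172 to 270 in G2, 394 to 608 in SCR and 430 to 465 in WT, mostly S100B. The muscle list (3 of 6, CKM at or near 0) summed to 138 to 198, 141 to 239 and 119 to 147, and the epithelial list (4 of 5) to 185 to 196, 171 to 188 and 118 to 155. The neuroblastoma, blood and glia lists moved with the G2 receptor changes below, and their part in those changes was not tested; in such bulk RNA, fewer cells of a type and less RNA per cell cannot be told apart.

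Of the 102 genes, 55 reached a mean normalized count of 10 over the 8 libraries and were tested (53.9%, against 39.8% of all entries). Another 24 had no count in any library, among them the GABA-A subunits GABRA2, GABRB1 and GABRB2, the D1-like dopamine receptors DRD1 and DRD5, the NMDA subunit GRIN2B and the serotonin receptors HTR1A and HTR2A. The remaining 23 lay under the filter, GRM3 just under it with a mean of 9.98. Of the tested genes, 42 had a mean of at least 10 in each line, 7 in 2 lines and 6 in 1 line only. Those 6 (CHRM1 and GRIK3 in WT, GRIN2C, HTR4 and HTR7 in G2, HTR3A in SCR) entered the test through the line in which they were high and so had to differ. The main counts are also given without them. Their fitted changes are given below as description, without p-values, because the filter itself selected for the difference. CHRNA2, CHRND, GRM5 and GLRA3 reached that mean in SCR and WT but not in G2, and HTR3B in G2 and SCR but not in WT. They entered through the lines in which they were higher, so their changes are also given without p-values. They stay in all counts, also in those without the 6 genes.

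Differentially expressed (DE) genes were those that changed 1.5-fold or more with a limma p no higher than 0.05 before adjustment, thresholds taken from the study's methods, and Benjamini-Hochberg adjustment ran over all 18947 genes tested. In G2/SCR 31 of the 55 receptor genes were DE, 14 upregulated and 17 downregulated, where 26.9% of all genes tested were DE (15.1% up, 11.8% down). In G2/WT 32 were DE, 15 up and 17 down, against 29.9% of all genes (17.7% up, 12.2% down). In SCR/WT 13 were DE, 6 up and 7 down, against 16.3% (10.7% up, 5.63% down). As shares of the tested receptor genes these were 56.4%, 58.2% and 23.6%. Without the 6 genes detected in 1 line only, 27, 27 and 9 of 49 were DE. By adjusted p the counts were 31, 31 and 12 (27, 26 and 8 without the 6 genes), against 25%, 28.2% and 13.8% of all genes. In 33 genes the G2 libraries all lay above (18) or all lay below (15) every control library, which held for 42.5% of all genes (22.8% above, 19.7% below), and without the 6 genes it was 30. G2/SCR and G2/WT share the G2 libraries, so the 2 comparisons are not independent of each other. The median log2 fold change of the tested receptor genes was -0.05 in G2/SCR, -0.04 in G2/WT and 0.04 in SCR/WT, beside -0.01, 0.00 and 0.01 for all genes, so the changes ran in both directions. When libraries were scaled to equal totals, the median of all genes moved to -0.10, 0.19 and 0.29, and the share of DE receptor genes that were higher in SCR/WT went from 46.2% to 77.8% (14 higher and 4 lower). In G2/WT that share went from 46.9% to 55.6% (20 higher and 16 lower) and in G2/SCR from 45.2% to 43.3%, so the split between directions depends on the scaling in SCR/WT and, less so, in G2/WT.

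**Figure D1:**
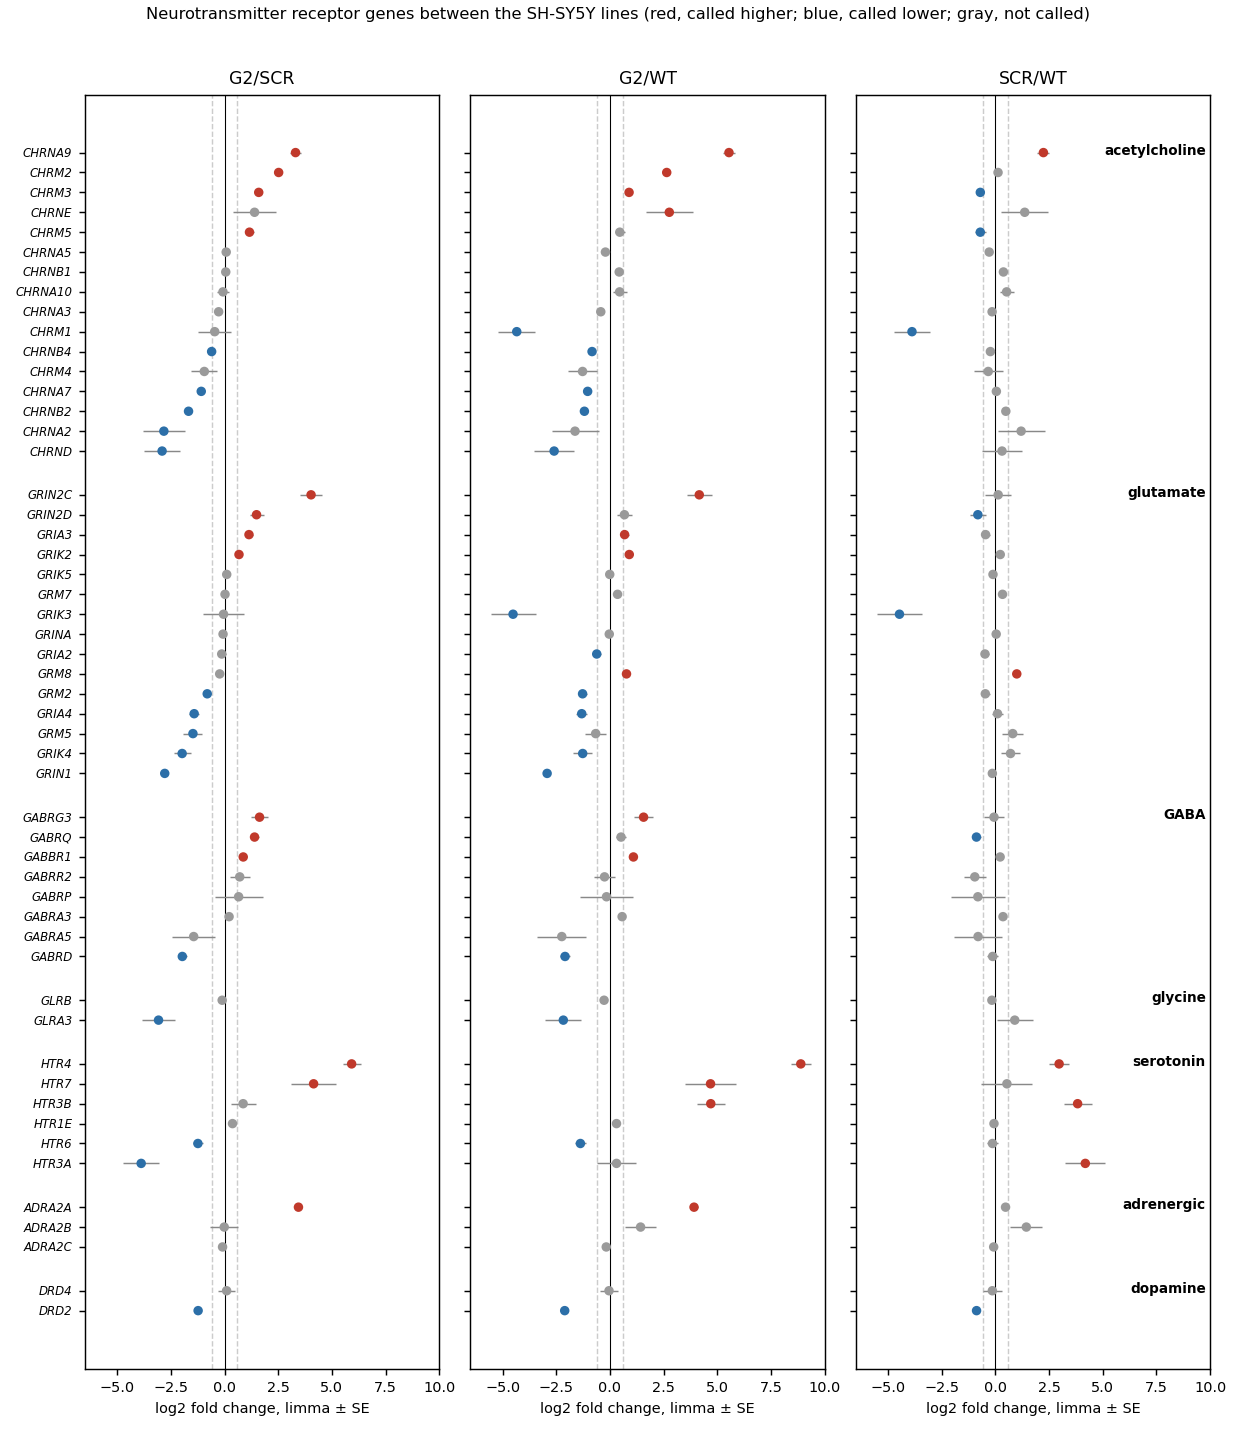
Log2 fold changes with standard errors (x axis, limma fit) of 52 tested receptor genes (y axis, grouped by transmitter) in G2/SCR, G2/WT and SCR/WT, with red points called higher, blue points called lower and gray points not called; dashed lines mark a 1.5-fold change. Points spread to both sides within most transmitter classes in G2/SCR (14 higher and 15 lower among the genes drawn) and G2/WT (14 higher, 15 lower), and fewer points are colored in SCR/WT (12).

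Of the acetylcholine receptor genes 16 of 21 were tested, and of the glutamate receptor genes, leaving out GRINA, 15 of 24. In G2/SCR 4 acetylcholine receptor genes rose and 5 fell, beside 15.1% of all genes tested that rose and 11.8% that fell. The 5 muscarinic receptors, which are G protein-coupled, were all tested, and in G2/SCR 3 of them rose while none fell. In G2/WT 2 rose and 1 fell (17.7% and 12.2% of all genes), and in SCR/WT 3 fell and none rose (5.63% and 10.7%). CHRM3 (GSHG0001818, chr1:239386568-239915450), the Gq-coupled M3 receptor that releases calcium on stimulation, was the most abundant of them, with normalized counts of 10559.9, 10990.3 and 10979.9 in G2, 3709, 3636 and 3436 in SCR and 5376 and 6367 in WT. All G2 libraries lay above all control libraries, and WT lay above SCR. The log2 fold change was 1.59 ± 0.07, adjusted p = 2e-09 for G2/SCR, 0.89 ± 0.07, adjusted p = 1e-06 for G2/WT and -0.70 ± 0.07, adjusted p = 2.7e-05 for SCR/WT. The last call was lost without WT replicate 2 (-0.58) and with equal totals. CHRM2 (GSHG0039988, chr7:136868652-137020252), the Gi/o-coupled M2 receptor best known from the heart, had 528, 534 and 472 in G2, 87.8, 84.5 and 92.2 in SCR and 75.7 and 86.4 in WT. The lines did not overlap between G2 and the controls, and the SCR and WT ranges overlapped, with changes of 2.52 ± 0.13, adjusted p = 1.3e-08 and 2.64 ± 0.14, adjusted p = 2.6e-08. CHRM5, a Gq-coupled receptor found on dopamine neurons, had 129.8, 106 and 103 in G2, 42.9, 47.9 and 59.7 in SCR and 67.0 and 99.3 in WT, a change of 1.16 ± 0.22, adjusted p = 0.00085 in G2/SCR. It was not called in G2/WT (0.46 ± 0.24), and its fall in SCR/WT of -0.71 was lost without WT replicate 2 (-0.43) and with equal totals.

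CHRM1, the Gq-coupled M1 receptor of the forebrain, went another way. Its counts were 2.82, 4.38 and 7.52 in G2, 12.2, 0.938 and 16.6 in SCR and 108 and 117 in WT, so that it was present in WT and near the detection limit in both G2 and SCR. The fitted log2 change was -4.34 ± 0.85 in G2/WT and -3.89 ± 0.85 in SCR/WT. The latter became -2.89 without SCR replicate 2 and -4.49 without SCR replicate 3. With G2 at so few counts, the level was between 9.37 and 72.9-fold lower than in WT by the 95% counting interval. The entry of CHRM1 lies wholly within that of ATL3 on the same strand (mean of 979 over all libraries), and 71.4% of that of CHRM5 lies within AVEN on the other strand (709), so that reads of these neighbors could be counted to them. CHRM4, whose entry overlaps that of the highly expressed MDK by 49 bases, was low in every line (32.0, 7.66 and 5.37 in G2, 19.4, 18.8 and 31.0 in SCR and 41.0 and 19.9 in WT) and not called. Per kilobase of exon, CHRM3 made up 89.2% of the muscarinic level in G2, 88.9% in SCR and 85.0% in WT, and the level summed over the 5 genes was 801 ± 8.89 in G2, 266 ± 5.14 in SCR and 455 ± 48.0 in WT (normalized count per kilobase, SD).

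Nicotinic receptors are pentamers, and their 16 genes fall into 11 neuronal and 5 muscle subunits, of which 8 and 3 were tested. Among the neuronal subunits 1 rose and 4 fell in G2/SCR, beside 15.1% and 11.8% of all genes tested. In G2/WT 1 rose and 3 fell, beside 17.7% and 12.2%. CHRNA3 (GSHG0015383, chr15:78593050-78621295), the α3 subunit of ganglionic receptors, was the most abundant receptor subunit of all per kilobase, with a level of 1495 in G2, 1806 in SCR and 2014 in WT. Its normalized counts were 7221, 6989 and 7139 in G2, 8688, 8501 and 8609.7 in SCR and 9034 and 10146 in WT. G2 lay below both controls without overlap, but the difference of -0.27 ± 0.05, adjusted p = 0.0013 for G2/SCR and -0.43 ± 0.06, adjusted p = 9.2e-05 for G2/WT stayed under 1.5-fold. CHRNB4 (GSHG0015385, chr15:78624111-78660532), the β4 partner of α3, had 1469, 1604 and 1531 in G2, 2326, 2341 and 2307 in SCR and 2542 and 2944 in WT. It was lower in G2, with changes of -0.60 ± 0.07, adjusted p = 1.7e-05 and -0.83 ± 0.08, adjusted p = 2.6e-06, close to the fold threshold in G2/SCR, where the call was lost without G2 replicate 1 (-0.57). CHRNA5, the accessory α5 subunit, had 1312, 1128 and 1252 in G2, 1161, 1203 and 1125 in SCR and 1358 and 1488 in WT and was not called in any comparison. These 3 genes stand side by side on chromosome 15, and the entries of CHRNA3 and CHRNA5 overlap by 2220 bases at their 3′ ends on opposite strands, so reads there could be split between them if strand was not used in counting.

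CHRNB2 (GSHG0001177, chr1:154567778-154580013), the β2 subunit of the main high-affinity nicotine receptors of the brain, fell as well, with counts of 571, 708 and 652 in G2, 2149, 2027 and 1982 in SCR and 1422 and 1511 in WT. No G2 library reached a control value, SCR lay above WT, and the change was -1.68 ± 0.08, adjusted p = 1.1e-08 for G2/SCR and -1.19 ± 0.10, adjusted p = 7.3e-07 for G2/WT. Its entry lies wholly within that of SLC39A1 on the opposite strand, which is far more abundant (means of 39584 in G2, 25432 in SCR and 28914 in WT), and how reads were assigned between them is not known. CHRNA7, which forms α7 homopentamers that pass calcium, had 199, 253 and 218 in G2, 522, 488 and 413 in SCR and 466 and 449.8 in WT, with changes of -1.08 ± 0.12, adjusted p = 1.4e-05 and -1.04 ± 0.14, adjusted p = 5e-05. It shares sequence with the partial duplicate CHRFAM7A, listed at 144 ± 10.8 in G2, 256 ± 14.5 in SCR and 262 ± 63.3 in WT, so reads may be divided between the pair. CHRNA9 (GSHG0032561, chr4:40335333-40355217), the α9 subunit known from cochlear hair cells, moved in the opposite direction, with 559, 565 and 544 in G2, 52.0, 46.0 and 70.3 in SCR and 7.45 and 15.9 in WT. The 3 lines did not overlap at all, and the change was 3.31 ± 0.25, adjusted p = 4.6e-07 for G2/SCR, 5.54 ± 0.28, adjusted p = 1.4e-08 for G2/WT and 2.23 ± 0.28, adjusted p = 0.00011 for SCR/WT. CHRNA10, the α10 subunit that pairs with α9, had 28.2, 38.3 and 43.0 in G2, 42.9, 31.0 and 40.8 in SCR and 23.6 and 28.8 in WT and G2 overlapped both controls. CHRNA2 was low and uneven (18.8, 5.47 and 0 in G2, 28.6, 36.6 and 40.1 in SCR and 4.97 and 39.7 in WT), and its call in G2/SCR (-2.82 ± 0.98) was lost without G2 replicate 3 (-1.66) and stood at -3.81 without G2 replicate 1.

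The promoters of CHRNA9 and CHRNB2 are shown because these subunits moved in opposite directions in the same cells. Each sequence is the RefSeq window of 300 bases from 250 before to 50 after the transcription start (GRCh38.p14), here with a start that matches the count table's gene start, read 5′ to 3′ on the plus strand. Capitals mark 3 motifs, each searched on both strands. The GC box was GGGCGG. The core promoter element called TATA box was written as TATAAA. The RE1 partial site, the first part of the element bound by REST, a repressor of neuronal genes, was TTCAGCACC. CHRNA9 is at chr4:40335083-40335382 and CHRNB2 at chr1:154567528-154567827.
CHRNA9: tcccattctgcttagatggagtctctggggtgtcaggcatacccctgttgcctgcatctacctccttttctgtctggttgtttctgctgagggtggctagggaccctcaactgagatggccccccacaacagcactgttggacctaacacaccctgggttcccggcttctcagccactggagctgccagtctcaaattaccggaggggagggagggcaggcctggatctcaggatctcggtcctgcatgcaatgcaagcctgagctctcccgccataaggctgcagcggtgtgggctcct
CHRNB2: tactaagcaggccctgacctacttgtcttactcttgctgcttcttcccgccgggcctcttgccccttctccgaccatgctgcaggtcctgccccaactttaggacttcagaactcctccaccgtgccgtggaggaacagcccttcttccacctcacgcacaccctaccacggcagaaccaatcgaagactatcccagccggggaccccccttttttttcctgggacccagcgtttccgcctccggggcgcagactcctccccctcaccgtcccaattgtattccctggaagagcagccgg
Neither window held any of the 3 motifs, and the G and C share was 58.7% for CHRNA9 and 60.3% for CHRNB2. Of 35116 promoters in the table, 45.0% held the GC box, 11.5% the TATA box and 0.376% the RE1 partial site.

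Among the muscle-type subunits CHRNB1, the β1 subunit, was the most abundant (725, 678 and 765 in G2, 646, 670.1 and 769 in SCR and 577 and 496 in WT) and was not called. CHRND, the δ subunit, had 14.1, 5.47 and 0 in G2, 61.2, 30.0 and 20.4 in SCR and 34.8 and 20.8 in WT, with G2 below every control library and changes of -2.91 ± 0.84, adjusted p = 0.013 and -2.60 ± 0.94, adjusted p = 0.036. Without G2 replicate 3 these were -1.81 and -1.50, without G2 replicate 1 -3.76 and -3.46, and without WT replicate 1 the G2/WT call was lost (-2.25). CHRNE, the adult ε subunit, had 29.2, 48.2 and 33.3 in G2, 19.4, 20.6 and 5.29 in SCR and 0 and 28.8 in WT. Its G2/WT call (2.76 ± 1.11, adjusted p = 0.053) did not pass by adjusted p and went from 0.31 without WT replicate 1, where the call was lost, to 5.21 without WT replicate 2, and it was also lost without G2 replicate 2 (2.56) or 3 (2.82). CHRNE overlaps C17orf107 over 3517 bases. Summed per kilobase, the neuronal nicotinic level was 2458 ± 26.7 in G2, 3005 ± 30.7 in SCR and 3246 ± 266 in WT.

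**Figure D2:**
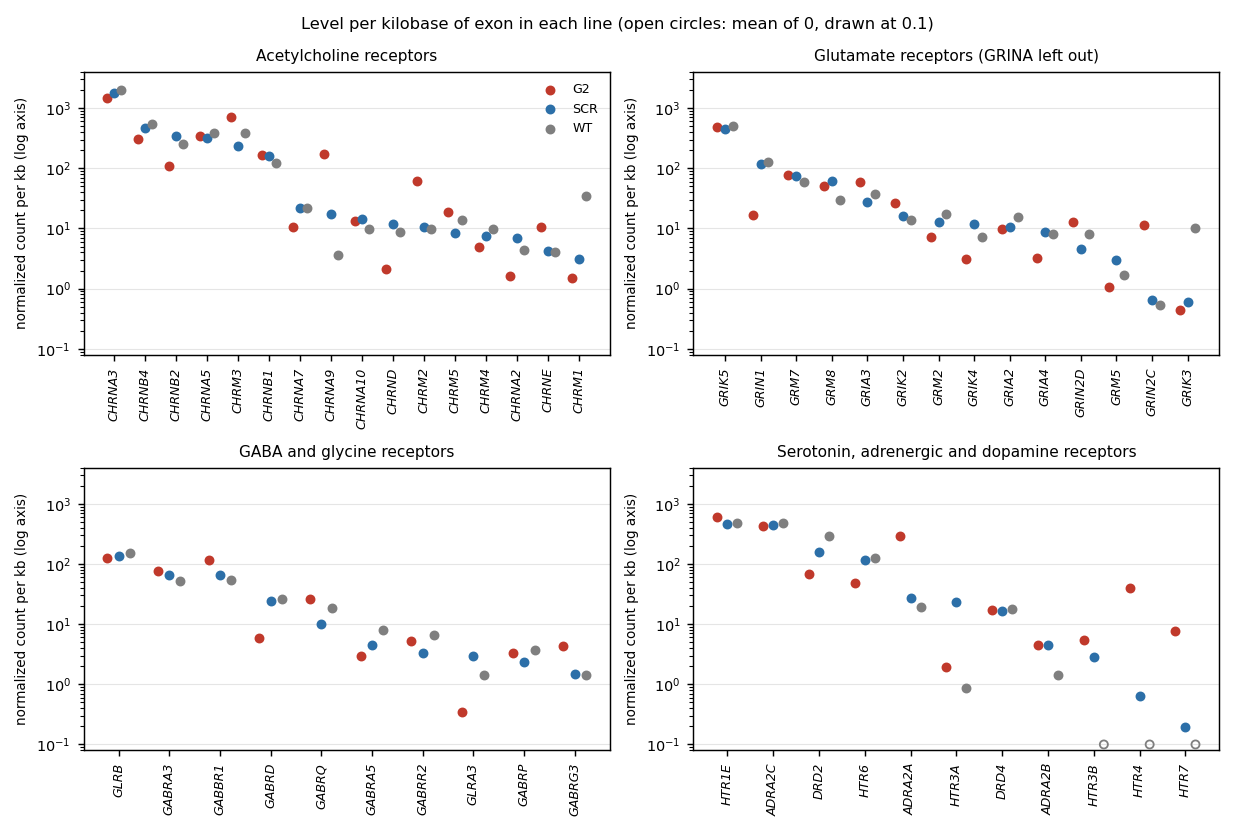
Mean normalized count per kilobase of exon (log axis) of 51 tested receptor genes, without GRINA, in G2 (red), SCR (blue) and WT (gray), with genes ordered by their SCR level within 4 panels by transmitter; open circles are means of 0. CHRNA3 is highest in all lines, and the red points of CHRNA9, CHRM2, HTR4 and ADRA2A lie above the control points while those of GRIN1 and CHRNB2 lie below.

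Glutamate receptors changed in both directions within each ionotropic family. In G2/SCR 4 rose and 6 fell of 15 tested (GRINA left out), beside 15.1% and 11.8% of all genes tested. In G2/WT 4 rose and 7 fell, beside 17.7% and 12.2%. Without GRIN2C and GRIK3, each detected in 1 line only, 3 rose and 6 fell in both comparisons. NMDA receptors need GluN1, the obligate subunit encoded by GRIN1 (GSHG0043995, chr9:137138390-137168756), together with GluN2 subunits. GRIN1 had normalized counts of 183, 187 and 192 in G2, 1311, 1206 and 1377 in SCR and 1481 and 1384 in WT. The G2 libraries stood close together and far below both controls, a change of -2.78 ± 0.08, adjusted p = 1.4e-10 for G2/SCR and -2.93 ± 0.09, adjusted p = 2.1e-10 for G2/WT, whereas SCR/WT was -0.14 ± 0.09. Of the GluN2 genes, GRIN2C (GSHG0019615, chr17:74842023-74860843), a subunit known from cerebellar granule cells, had 119, 77.7 and 91.3 in G2, 7.14, 1.88 and 7.56 in SCR and 6.21 and 2.98 in WT. It was present in G2 and near the detection limit in the controls, with fitted changes of 4.03 ± 0.53 and 4.16 ± 0.59. Its G2 level was between 6.95 and 103-fold that of WT by the 95% counting interval. GRIN2D, a subunit of early development, had 79.0, 73.4 and 59.1 in G2, 16.3, 31.9 and 27.2 in SCR and 32.3 and 58.6 in WT and rose in G2/SCR (1.49 ± 0.32, adjusted p = 0.0023). It was not called in G2/WT, and its SCR/WT call (-0.82 ± 0.36, adjusted p = 0.1) did not pass by adjusted p and was lost under the replicate block, without WT replicate 2 (-0.40) and without SCR replicate 1 (-0.55) or 3 (-0.90). Its entry lies wholly within that of FTL on the same strand, whose level was far higher (63045, 73269 and 69921), so its counts are uncertain. GRIN2A was near 0 and GRIN2B at 0. Per kilobase GRIN1 made up 95.5% of the NMDA subunit level in SCR, 93.5% in WT and 38.1% in G2, where GRIN2D and GRIN2C made up 28.7% and 25.2%.

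AMPA receptors carry most fast excitatory transmission in the brain. GRIA3, the GluA3 subunit, was the most abundant and had 442, 379 and 343 in G2, 219, 155 and 156 in SCR and 209.8 and 275 in WT. G2 lay above all controls, with 1.14 ± 0.17, adjusted p = 0.00012 for G2/SCR and 0.68 ± 0.19, adjusted p = 0.0085 for G2/WT, the latter lost without G2 replicate 1 (0.58) or WT replicate 1 (0.49). GRIA4 had 28.2, 39.4 and 34.4 in G2, 108, 88.2 and 80.1 in SCR and 90.6 and 80.4 in WT and fell by comparison with both lines (-1.41 ± 0.22, adjusted p = 0.0002 and -1.32 ± 0.25, adjusted p = 0.00074). GRIA2, whose edited subunit keeps calcium out of the channel, had 144, 137 and 135 in G2, 133, 159 and 166 in SCR and 165 and 275 in WT. It was called only in G2/WT (-0.62 ± 0.20, adjusted p = 0.024), and that call was lost without WT replicate 2 (-0.25) and with equal totals. GRIA1 was near 0 in every library. Per kilobase GRIA3 made up 82.1% of the AMPA level in G2, 58.4% in SCR and 61.3% in WT.

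Kainate receptors combine low-affinity (GRIK1 to GRIK3) and high-affinity (GRIK4 and GRIK5) subunits. GRIK5 was the most abundant, with 2648, 2939 and 2863 in G2, 2759.6, 2588 and 2519 in SCR and 3039.6 and 2644 in WT, and its log2 changes of 0.10 ± 0.07, -0.01 ± 0.08 and -0.11 ± 0.08 did not pass. GRIK2 had 746, 638 and 720.0 in G2, 434, 442 and 439 in SCR and 340.2 and 413 in WT and rose, with 0.67 ± 0.10, adjusted p = 0.00014 and 0.90 ± 0.11, adjusted p = 3.3e-05; with equal totals the first was 0.58 and was no longer called. GRIK4 had 36.7, 19.7 and 12.9 in G2, 94.9, 121 and 55.2 in SCR and 65.8 and 41.7 in WT, lower in every G2 library, with -1.97 ± 0.40, adjusted p = 0.0014 and -1.27 ± 0.45, adjusted p = 0.031, the latter lost without G2 replicate 3 (-0.93) or WT replicate 1 (-0.95). GRIK3 had 0.941, 8.76 and 4.30 in G2, 9.19, 0 and 9.82 in SCR and 109 and 101 in WT, a WT signal that neither G2 nor SCR shared. Its fitted change was -4.51 ± 1.05 in G2/WT (-3.88 without G2 replicate 1). In SCR/WT it was -4.47 ± 1.05 (-3.34 without SCR replicate 2 and -5.06 without SCR replicate 3). By the counting interval G2 was between 9.18 and 71.8-fold lower than WT.

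Among the metabotropic glutamate receptors described here, GRM2 and GRM5 fell in G2/SCR. GRM7 and GRM8, presynaptic Gi/o-coupled receptors, were the most abundant. GRM7 had 696, 642 and 743 in G2, 657, 687 and 699.8 in SCR and 499 and 588 in WT and was not called. GRM8 had 303, 333 and 348 in G2, 362, 402 and 385 in SCR and 189 and 195 in WT, with WT below both G2 and SCR and calls in G2/WT (0.77 ± 0.12, adjusted p = 0.00015) and SCR/WT (0.99 ± 0.12, adjusted p = 6e-05). GRM5, a Gq-coupled postsynaptic receptor, had 6.59, 13.1 and 7.52 in G2, 27.6, 22.5 and 28.0 in SCR and 14.9 and 13.9 in WT. It was called in G2/SCR only (-1.47 ± 0.44). GRM2, a Gi/o-coupled receptor of presynaptic terminals, had 44.2, 58.0 and 51.6 in G2, 82.7, 81.6 and 107 in SCR and 127 and 123 in WT, with all G2 libraries lowest and changes of -0.81 ± 0.19, adjusted p = 0.0045 and -1.28 ± 0.22, adjusted p = 0.00038. Its promoter is shown because it was the 1 DE receptor gene, among the 9 with a RefSeq promoter that fell in both G2 comparisons, whose window held the RE1 partial site. Capitals mark the motifs as above, and the window lies at chr3:51706818-51707117 on the plus strand, with a start 6 bases from that of the count table.
GRM2: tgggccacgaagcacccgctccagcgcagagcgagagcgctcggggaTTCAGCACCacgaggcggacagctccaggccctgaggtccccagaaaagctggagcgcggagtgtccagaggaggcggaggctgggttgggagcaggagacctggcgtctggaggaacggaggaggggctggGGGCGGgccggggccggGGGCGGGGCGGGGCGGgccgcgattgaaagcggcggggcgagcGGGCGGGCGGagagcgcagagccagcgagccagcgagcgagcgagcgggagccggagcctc
The RE1 partial site stands in the first part of the window, and the GC boxes, 6 counting those that overlap, cluster nearer the start. GRINA had 5185, 5904 and 5751 in G2, 6223, 5667 and 5754 in SCR and 6512 and 5048 in WT and was not called. Its abundance accounts for 73.0 to 74.0% of the per-kilobase glutamate total of each line, and a total of this class would mostly measure that gene.

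Among the GABA receptor genes described here, GABRG3, GABRQ and GABBR1 rose in G2/SCR and GABRD fell. GABA-A receptors are chloride channels of α, β and usually one further kind of subunit. GABRD, the δ subunit of extrasynaptic receptors, had 29.2, 30.7 and 38.7 in G2, 136, 107 and 152 in SCR and 171 and 118 in WT and fell, with changes of -1.97 ± 0.22, adjusted p = 1.3e-05 and -2.09 ± 0.25, adjusted p = 2e-05. GABRG3, the γ3 subunit, had 53.6, 70.1 and 44.1 in G2, 9.19, 20.6 and 25.7 in SCR and 16.1 and 19.9 in WT and rose, with 1.63 ± 0.40, adjusted p = 0.0051 and 1.56 ± 0.45, adjusted p = 0.011. GABRA5, its neighbor on chromosome 15, was low and not called (5.65, 0 and 25.8 in G2, 7.14, 27.2 and 14.4 in SCR and 14.9 and 43.7 in WT).

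GABRQ, the θ subunit, lies within the entry of GABRA3 on the X chromosome and had 185, 171 and 153 in G2, 57.2, 55.4 and 80.9 in SCR and 98.1 and 142 in WT. It rose in G2/SCR (1.40 ± 0.20, adjusted p = 0.00012), was not called in G2/WT and fell in SCR/WT (-0.88 ± 0.23, adjusted p = 0.01). GABRA3, the only α subunit well above the filter, had 332, 327 and 286 in G2, 287, 257 and 271 in SCR and 191 and 235 in WT and was not called. GABRP (1.88 to 30.8 over all libraries) and GABRR2 (8.16 to 44.7), subunits outside the main brain receptors, were low and not called. GABBR1 (GSHG0047529, chr6:29602229-29633183), the ligand-binding subunit of the metabotropic GABA-B receptor, had 1029, 900.1 and 1064 in G2, 549, 497 and 587 in SCR and 481 and 453 in WT. It rose by 0.87 ± 0.09, adjusted p = 1e-05 for G2/SCR and 1.09 ± 0.11, adjusted p = 4e-06 for G2/WT, while GABBR2, the partner that a surface receptor needs, was at or near 0 in every library. Of the glycine receptor genes, GLRB, the anchoring β subunit, had 478, 404 and 381 in G2, 465, 427 and 466 in SCR and 505 and 509 in WT and was not called. GLRA3 was low, with 5.65, 0 and 4.30 in G2, 25.5, 40.4 and 18.1 in SCR and 13.7 and 13.9 in WT. Its fitted fall in G2/SCR (-3.07 ± 0.75, -2.22 without G2 replicate 2) corresponded to a level 2.99 to 32.9-fold lower by the counting interval. In G2/WT (-2.17 ± 0.84, -1.32 without G2 replicate 2) the call was lost without either WT library (-2.18 and -2.16).

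**Figure D3:**
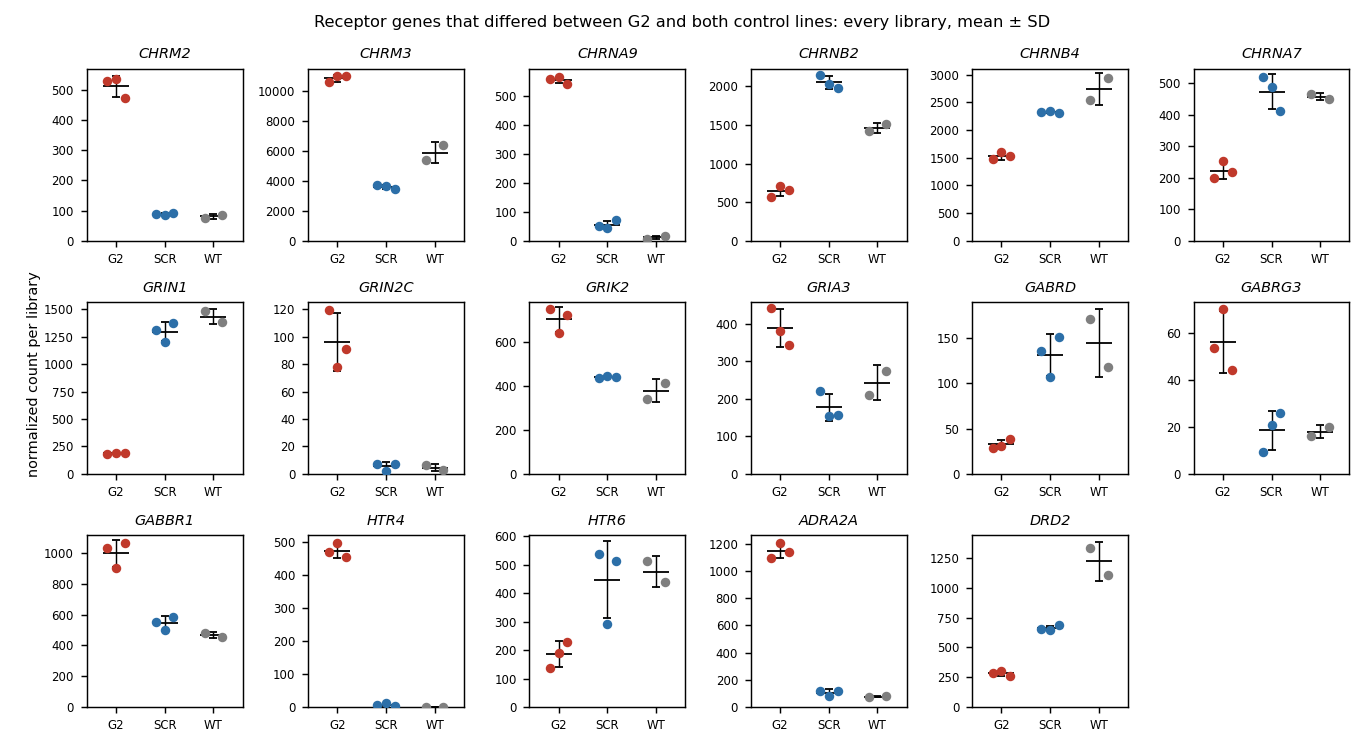
Normalized counts (y axis, linear, each panel with its own scale from 0) of 17 receptor genes in every library of G2 (red), SCR (blue) and WT (gray), with the mean and SD as black bars. The genes were chosen because G2 differed from both control lines, so the G2 points lie apart from the 5 control points in every panel by that choice. Examples are GRIN1 (183 to 192 in G2 and 1206 to 1481 in the controls) and CHRM2 (472 to 534 and 75.7 to 92.2). GRIN2C and HTR4 entered the test through G2 only.

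Serotonin receptors had 6 of 17 genes tested. HTR1E, a Gi/o-coupled receptor, was the most abundant with 1204, 1145 and 924 in G2, 815, 906 and 796 in SCR and 864 and 892 in WT. All G2 libraries lay above the controls, but the difference of 0.37 ± 0.10, adjusted p = 0.009 and 0.30 ± 0.11, adjusted p = 0.039 stayed under 1.5-fold. HTR4 (GSHG0035888, chr5:148451031-148665644), a Gs-coupled receptor that raises cyclic AMP, had 469, 496 and 453 in G2, 5.10, 13.1 and 4.53 in SCR and 0 and 0 in WT. It was abundant in G2, near the detection limit in SCR and not detected in WT. The fitted change was 5.92 ± 0.42 in G2/SCR, and against the 3 fragments per library that a count of 0 allows the WT level was exceeded in G2 by at least 47.0-fold. The mean SCR level lay under that limit, so its fitted call in SCR/WT (2.97 ± 0.47) carries no fold. HTR7, another Gs-coupled receptor, had 30.1, 13.1 and 37.6 in G2, 2.04, 0 and 0 in SCR and 0 and 0 in WT, at least 2.68-fold higher in G2 than in WT, and between 6.53 and 1622-fold that of SCR by the counting interval. The third Gs-coupled serotonin receptor, HTR6, fell, with 138, 192 and 228 in G2, 537, 292 and 512 in SCR and 514 and 438 in WT and changes of -1.24 ± 0.23, adjusted p = 0.00073 and -1.38 ± 0.26, adjusted p = 0.00071. Its G2 libraries did not overlap the controls, although SCR replicate 2 stood well below the other SCR libraries.

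The ionotropic 5-HT3 receptor needs the A subunit, and B modifies it. HTR3A had 0, 4.38 and 10.7 in G2, 79.6, 40.4 and 59.7 in SCR and 2.48 and 1.99 in WT, highest in every SCR library. The fitted change was -3.88 ± 0.83 in G2/SCR (-4.66 without G2 replicate 3 and -2.88 without G2 replicate 1) and 4.19 ± 0.92 in SCR/WT. HTR3B, its neighbor on chromosome 11, had 22.6, 21.9 and 31.2 in G2, 11.2, 16.9 and 12.1 in SCR and 0 and 0 in WT. It was not called in G2/SCR (0.87 ± 0.58) and was at least 2.51-fold higher in G2 than in WT and at least 1.33-fold higher in SCR than in WT.

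ADRA2A (GSHG0004473, chr10:111077029-111080907), the Gi/o-coupled α2A receptor that limits noradrenaline release as an autoreceptor, had 1098, 1207 and 1141 in G2, 121, 78.8 and 119 in SCR and 72.0 and 78.4 in WT. The G2 libraries lay far above both control lines, a change of 3.44 ± 0.16, adjusted p = 5.2e-09 for G2/SCR and 3.91 ± 0.18, adjusted p = 5e-09 for G2/WT, and SCR/WT was 0.47 ± 0.18. ADRA2C, the other abundant α2 receptor, had 819, 965 and 999 in G2, 1010.4, 984 and 959.8 in SCR and 1278 and 849.9 in WT, overlapped between the lines and was not called, nor was the low ADRA2B (2.98 to 28.2). Per kilobase ADRA2A made up 40.8% of the α2 level in G2, 5.68% in SCR and 3.81% in WT. The promoter of ADRA2A is printed because the gene rose against both controls and its window held 2 of the motifs (chr10:111076779-111077078, plus strand).
ADRA2A: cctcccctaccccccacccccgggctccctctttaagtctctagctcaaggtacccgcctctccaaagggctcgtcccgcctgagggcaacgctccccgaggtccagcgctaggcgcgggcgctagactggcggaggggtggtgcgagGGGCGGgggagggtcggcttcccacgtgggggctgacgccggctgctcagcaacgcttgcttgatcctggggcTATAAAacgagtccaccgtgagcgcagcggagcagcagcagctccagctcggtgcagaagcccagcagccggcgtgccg
It held 1 GC box, and 1 TATA box shortly before the start, a description of these letters only. The α1 receptors and ADRB1 were at or near 0. Of the dopamine receptors DRD2 (GSHG0008265, chr11:113409596-113475691), a Gi/o-coupled receptor and autoreceptor, had 283, 302 and 260.0 in G2, 652, 645 and 686 in SCR and 1338 and 1105 in WT. The lines were ordered G2, SCR, WT without overlap, with -1.23 ± 0.10, adjusted p = 6.7e-07 for G2/SCR, -2.11 ± 0.11, adjusted p = 1.6e-08 for G2/WT and -0.88 ± 0.11, adjusted p = 9.8e-05 for SCR/WT. DRD4 was low in every line (19.8, 24.1 and 33.3 in G2, 29.6, 15.0 and 28.7 in SCR and 32.3 and 20.8 in WT) and not called.

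**Figure D4:**
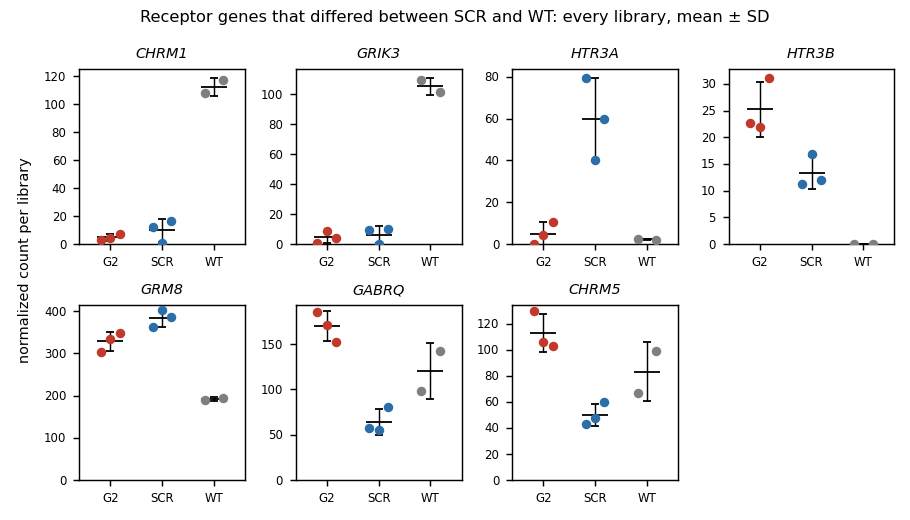
Normalized counts (y axis, linear, each panel with its own scale from 0) of 7 receptor genes that were DE in SCR/WT, in every library of G2 (red), SCR (blue) and WT (gray), with the mean and SD as black bars. CHRM1 and GRIK3 lay at 101 to 117 in WT and at no more than 16.6 in G2 and SCR, HTR3A was highest in SCR (40.4 to 79.6), whereas HTR3B and GRM8 were lowest in WT and GABRQ and CHRM5 lowest in SCR.

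By mode of action, ionotropic subunits counted 7 higher and 12 lower of 33 tested in G2/SCR, beside 15.1% of all genes higher and 11.8% lower (6 and 11 of 30 without the genes detected in 1 line only). In G2/WT they counted 7 and 12 (6 and 11), beside 17.7% and 12.2%. Metabotropic receptors counted 7 higher and 5 lower of 21 in G2/SCR (5 and 5 of 18) and 8 and 5 in G2/WT (6 and 4). In G2/SCR cation channel subunits had 5 higher and 9 lower of 23 (4 and 8 of 20), and chloride channel subunits 2 and 3 of 10, none of them detected in 1 line only. These groups are small, and no difference between them was tested. RefSeq promoters matched 40 of the 55 tested genes. The GC box was in 5 of 9 windows of genes that were higher in both G2 comparisons, 7 of 9 that were lower in both and 9 of 12 called in neither, with median G and C shares of 69.3%, 72.7% and 67.0% beside 58.7% for all promoters. The TATA box was in 1, 0 and 3 of these windows and the RE1 partial site in 0, 1 and 0.

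The genes that supply, clear and relay the transmitters were followed with a fixed list of 106, of which 105 had an entry and 84 were tested. In G2/SCR 16 rose and 24 fell, in G2/WT 21 and 20, and in SCR/WT 16 and 3, beside 26.9%, 29.9% and 16.3% of all genes called in either direction. With equal totals, a setting added after the data were seen, the SCR/WT counts were 25 and 2. Among the 10 tested catecholamine supply genes 2 rose and 7 fell in G2/SCR. DBH, which makes noradrenaline from dopamine, had means of 15234 ± 349 in G2, 50905 ± 1719 in SCR and 61145 ± 2715 in WT (-1.74 ± 0.05, adjusted p = 9.6e-11 in G2/SCR), and SLC6A2, the noradrenaline transporter, fell as well (-1.55 ± 0.05, adjusted p = 4.8e-10). MAOB, which degrades monoamines, rose (2.22 ± 0.10, adjusted p = 4.8e-09).

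In acetylcholine supply 2 rose and 1 fell of 4 tested. ACHE, which breaks acetylcholine down, rose (1.38 ± 0.13, adjusted p = 3.8e-06), and SLC18A3, the vesicular acetylcholine transporter, fell (-0.78 ± 0.16, adjusted p = 0.0013). All 4 tested GABA supply genes were DE: GAD1, which makes GABA, rose from 18.6 ± 4.68 in SCR to 208 ± 33.9 in G2 (3.43 ± 0.32, adjusted p = 2.8e-06), whereas ABAT, which degrades it (-1.47 ± 0.08, adjusted p = 1.4e-08), and the transporters SLC6A11 (-1.73 ± 0.11, adjusted p = 9.4e-08) and SLC32A1 (-1.41 ± 0.33, adjusted p = 0.0035) fell. In glutamate supply 3 rose and 1 fell of 7, including the vesicular transporters SLC17A7 (1.38 ± 0.27, adjusted p = 0.0012) and SLC17A8 (3.48 ± 1.07), the latter with an uneven 34.2 ± 29.1 in G2. The G2 libraries alone brought SLC17A8 over the filter, so its change is given as description, without a p-value, and stays in the count. Of 27 genes for receptor assembly and anchoring 3 rose and 5 fell. CNIH3, an AMPA receptor auxiliary subunit, rose from 139 ± 17.9 to 1049 ± 46.3 (2.91 ± 0.12, adjusted p = 1.8e-09). CACNG4, another AMPA receptor partner, fell from 37945 ± 1073 to 18694 ± 385 (-1.02 ± 0.05, adjusted p = 4.3e-09). It was also lower in SCR than in WT (-0.63 ± 0.05). LYPD6, a modulator of nicotinic receptors, rose (1.65 ± 0.07, adjusted p = 1.6e-09). Among 30 G protein signalling genes 4 rose and 7 fell. GNAI2, a Gi α subunit, rose (1.61 ± 0.07, adjusted p = 2.8e-09) and GNAO1, the Go α subunit of neurons, fell (-1.21 ± 0.07, adjusted p = 2.1e-08), as did RGS7, which ends Gi/o signals (-3.07 ± 0.12, adjusted p = 8.6e-10). RGS7 was higher in SCR than in WT (1.39 ± 0.13), and its fall in G2/WT was smaller (-1.69 ± 0.13). KCTD12, an auxiliary subunit of GABA-B receptors, rose (1.67 ± 0.09, adjusted p = 2.2e-08) together with GABBR1. Unlike GABBR1, it was also called higher in SCR than in WT (0.72 ± 0.10).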

How the data were processed

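RNA-seq of polyA RNA (stranded kit, paired ends) was made from SH-SY5Y G2 (n = 3), SCR (n = 3) and WT (n = 2) cells. Per the submitters' processing notes the authors used STAR 2.7.5a, featureCounts (Subread 1.5.0) and DESeq2 on hg38. The strand setting and the treatment of multi-mapped reads are not given in the sources used here. The deposited values are counts per gene divided by DESeq2 size factors (a normalized signal, called normalized counts here). Whole counts were recovered from the steps of each library (100% whole within 0.01), 59804395 to 81080747 in all. Genes averaging 10 or more (18947) were fitted as log2(normalized count + 1) with limma 3.58.1 (R 4.3.3, trended variance, 1 mean per line). Fold changes, ± SE, are on that scale. Adding 1 shrinks changes of low genes, but averaging logs can overstate them where the libraries of a line are uneven or at 0. For CHRNE in G2/WT the fitted log2 change was 2.76, while the mean normalized counts differed 2.56-fold. Calls needed a 1.5-fold change and p no higher than 0.05 before Benjamini-Hochberg adjustment. DESeq2 1.42.0 and edgeR 4.0.16 on recovered counts were alternatives for G2/SCR only, since the step of WT replicate 2 (0.993) is close to 1, where whole steps are hard to tell from rounding. Small recovered counts were mostly multiples of 3, so the detection limit was 9 counts, about 3 fragments. The 95% counting intervals and this limit cover counting error only. Levels per kilobase used merged GENCODE exons. Some receptor genes stay in the counts but are not reported here by name. Other tested members could be named, with library values for those called, those with G2 outside the controls and the most abundant of each group; companion genes were named by smallest p in G2/SCR, up to 4 per group. Members and lists were chosen with earlier results of these data known. The fit was tested on simulated data. Libraries with the same replicate number in their sample titles did not deviate together (correlations of -0.17 to 0.15 over 7 pairs), so these numbers were not treated as pairs. With so few libraries per line the check is weak. The library names carry other numbers, and a pairing by those was not checked.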

Additional observations from a re-analysis of the deposited data

How the results depend on the processing

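Over 76 calls of single receptor genes and 21 alternative settings, 1225 of 1276 values kept their direction and their side of the threshold, 51 kept the direction but were no longer called, and 0 reversed. The 51 losses came from 22 of the 76 calls, and 13 calls were lost in a setting other than a fold of at least 2. Genes removed by the filter of a setting are not among these values, so a mean of at least 50 followed only 49 calls. At a mean of at least 50, 11 genes fell in G2/SCR, 21 were called in G2/WT (9 higher), and 7 were called in SCR/WT (3 higher, 4 lower), of 33 tested. At a fold of at least 2, 7 genes were called in SCR/WT (2 lower) and PRPF40B in G2/SCR (-0.95) was no longer called. With equal totals SCR/WT had 14 higher and 4 lower (companion genes 25 higher, added after seeing the data), and PRPF40B in SCR/WT, not called in either, turned to 0.16. The replicate block gave 31 calls in G2/SCR, 34 in G2/WT and 13 in SCR/WT. On recovered counts DESeq2 and edgeR each called 33 genes in G2/SCR. Leaving out single libraries gave 30 to 32 calls in G2/SCR, 29 to 33 in G2/WT (14 to 19 higher, 14 to 18 lower) and 11 to 17 in SCR/WT (6 to 7 higher, 4 to 10 lower, the lowest without WT replicate 2), 32 to 35 genes with G2 outside the controls, and -0.23 to 0.0069 for PRPF40B in SCR/WT. WT had 2 libraries, and low counts limit the genes near the detection limit, such as CHRM1, GRIK3, GRIN2C, HTR4, HTR7, HTR3A, HTR3B and GLRA3. Levels of RNA do not give receptor protein.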

Other observations

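Of the 47 receptor genes under the filter, 3 had all G2 libraries above all control libraries: CHRNA4, the α4 partner of β2 in brain nicotinic receptors (means of 10.4 in G2, 2.64 in SCR and 1.99 in WT), GRIN3B (11.04, 0.313 and 0.621) and HTR1B (7.88, 0.938 and 0). All lay near the detection limit of about 3 fragments and were not tested. BCHE, a cholinesterase from the list of acetylcholine supply genes, had means of 1.43 in G2, 1.88 in SCR and 113 in WT, like CHRM1 and GRIK3 a signal of the WT libraries.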
